A study of Mus musculus with 29 samples.

Results

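Transcripts of 10 genes of fibroblast scar and meningeal matrix were followed across a series of mouse cortex samples with and without stroke. They were chosen by their symbols, with earlier results of these data known. The genes were Dcn, Lum, Ogn, Fn1, Postn, Lox, Loxl1, Fbln1, Igf2 and Ptgds. They are 10 of the 25746 genes in the count files, and all 10 were among the 17031 genes that passed the filter on low counts. RNA from a piece of cortex was sequenced in 29 samples from mice of 3 months of age and both sexes, without stroke or 21 days post injury (dpi) after a photothrombotic stroke of the right sensorimotor cortex. Samples without stroke were 4 WT, 3 Rag2-/- and 4 NSG samples. Stroked samples were 4 WT, 3 WT given tacrolimus from 0 dpi (WT-Tacr acute), 5 WT given tacrolimus from 7 dpi (WT-Tacr delayed), 3 Rag2-/- and 3 NSG samples. Tacrolimus, which blocks calcineurin in T cells, was delivered by osmotic pump. Lymphocytes of the T and B lineages do not mature in Rag2-/- mice. NSG mice lack these and NK cells and carry a NOD genome, whereas the other mice are C57BL/6, so that in NSG mice strain background and immune deficiency cannot be told apart. The source of the non-stroked RNA is given both as the contralesional side and as naïve animals, so the text speaks only of non-stroked samples. For sequencing, the study counts fewer animals than samples in NSG and tacrolimus-treated mice, but not in WT or Rag2-/- mice. The labels do not tie samples to animals, so stroked and non-stroked samples may share animals. The p-values here treat each sample as independent. No non-stroked samples on tacrolimus were analysed here. Controls were the same 4 non-stroked WT samples for WT, WT-Tacr acute and WT-Tacr delayed alike, and these 3 comparisons are not independent.

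Fibroblasts lie in the meninges and around larger vessels of the healthy brain, and after injury they enter the lesion core and lay down a collagen-rich scar. Decorin (Dcn), lumican (Lum) and osteoglycin (Ogn) are small leucine-rich proteoglycans that bind collagen and control how its fibrils assemble. Fibronectin (Fn1) is a scaffold to which cells attach through integrins, and periostin (Postn) is a matricellular protein of wounds and fibrous tissue. Lysyl oxidase (Lox) and its relative Loxl1 cross-link collagen and elastin, and fibulin-1 (Fbln1) is a glycoprotein of basement membranes and elastic fibres. Insulin-like growth factor 2 (Igf2), an imprinted growth factor, and prostaglandin D2 synthase (Ptgds), which is secreted into cerebrospinal fluid, are made by meningeal and choroid plexus cells in the adult brain, and Ptgds also by oligodendrocytes.

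To show the regulatory sequence of genes that were high together in stroked tissue, the 250 bases before the start site are given for Ogn and Postn, which rose in stroked WT samples. The RefSeq table of promoters on GRCm38.p6 matched 5 of the 10 genes (Ogn, Postn, Fbln1, Igf2 and Ptgds), and Dcn and Lum had no entry. Both genes lie on the plus strand, Ogn with this window at chr13:49607765-49608014 and Postn with a window at chr3:54360857-54361106 and a second, for an upstream start site, at chr3:54359017-54359266, and the sequences run 5′ to 3′. Capitals mark matches on either strand to 4 motifs: TATAAA, a core promoter element, CAGAC, which SMAD factors of the TGF-beta pathway bind, GGAATG, the site of TEAD factors, and TGACTCA, the site of AP-1.
Ogn: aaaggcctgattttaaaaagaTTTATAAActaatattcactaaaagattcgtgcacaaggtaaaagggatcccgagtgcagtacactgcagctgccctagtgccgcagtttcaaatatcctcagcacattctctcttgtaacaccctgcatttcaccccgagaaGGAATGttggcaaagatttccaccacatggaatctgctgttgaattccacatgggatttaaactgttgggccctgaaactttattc
Postn: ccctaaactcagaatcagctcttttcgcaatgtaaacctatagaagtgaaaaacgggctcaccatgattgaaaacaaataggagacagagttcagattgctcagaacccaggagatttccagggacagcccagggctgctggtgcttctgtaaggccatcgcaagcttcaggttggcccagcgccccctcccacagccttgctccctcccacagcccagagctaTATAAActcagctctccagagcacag
Postn upstream: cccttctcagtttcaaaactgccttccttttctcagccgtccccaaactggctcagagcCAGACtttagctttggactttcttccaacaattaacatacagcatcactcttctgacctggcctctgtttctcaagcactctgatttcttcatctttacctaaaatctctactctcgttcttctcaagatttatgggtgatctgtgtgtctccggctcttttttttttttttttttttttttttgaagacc
The Postn window held TATAAA once, starting 26 bases before the start site, and the upstream one held CAGAC once, 191 bases before its start site. The Ogn window held the same letters on both strands as 1 overlapping run near its 5′ end, and GGAATG 86 bases before the start site. Among 32851 promoter windows of the same length, TATAAA was found in 12.4%, CAGAC in 42.2%, GGAATG in 12.6% and TGACTCA in 4.46%. A match of letters is a description and says nothing of a bound factor.

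Total counts per sample ran from 17789044 to 43403413. By their label prefix the samples form 2 cohorts, Imm2 with 20 and TF with 9 samples, with median total counts of 37223696 and 23155303. Imm2 holds every non-stroked sample and TF every WT-Tacr delayed one, so in comparisons of these, cohort is separated from group only by way of the stroked WT and WT-Tacr acute samples, which span both. Stroked WT samples 1 and 2 belong to Imm2 and samples 3 and 4 to TF, and WT-Tacr acute sample 1 belongs to Imm2 and samples 2 and 3 to TF. Rag2 itself had 0 to 2 counts in every sample and could not check the labels, but B230118H07Rik, which lies beside it, had 0 to 4 counts in Rag2-/- samples and 274 to 1241 counts in all others. The 8 markers of cortical neurons, which define the labelled tissue, summed to between 3310 and 6270 CPM (counts of a gene for each megaread of the library) in each sample. By the GENCODE M21 annotation of GRCm38, Dcn lies at chr10:97479609-97518143, Lum at chr10:97565128-97572703, Ogn at chr13:49608046-49624501, Fn1 at chr1:71585520-71653200, Postn at chr3:54361109-54391037, Loxl1 at chr9:58287738-58313186, Fbln1 at chr15:85205949-85286535, Igf2 at chr7:142650766-142666816, Ptgds at chr2:25466709-25470046 and Lox on chromosome 18. Levels below are CPM scaled to the library size after TMM normalization, and changes are log2 fold changes ± SE from edgeR. A gene counted as called when its p, adjusted by the Benjamini-Hochberg method, was under 0.05 and its log2 fold change was beyond 1 in size.

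The small leucine-rich proteoglycans Dcn and Lum rose in stroked WT, WT-Tacr delayed, Rag2-/- and NSG samples, by between 5.35-fold and 30.6-fold. Dcn was at 8.09, 9.25, 10.7 and 10.7 CPM in the 4 non-stroked WT samples and at 51.5, 82.2, 87.0 and 88.2 CPM in the 4 stroked WT samples. The groups did not overlap, and the change was 2.99 ± 0.53 on the log2 scale (adjusted p = 0.000254). Because whole tissue was sequenced, more fibroblasts and more RNA per fibroblast cannot be told apart here or in any result below. Dcn in the 3 WT-Tacr acute samples was at 13.1, 6.74 and 69.1 CPM, so that 1 sample was below all non-stroked WT samples, 1 little above them and 1 in the range of stroked WT samples. In the WT-Tacr delayed samples Dcn reached 84.2, 105, 116, 65.0 and 170.3 CPM. Stroked Rag2-/- samples were at 64.6, 46.0 and 66.7 CPM against 8.61, 10.6 and 8.07 CPM in non-stroked ones. NSG samples had 52.0, 182 and 69.3 CPM after stroke, and without it they ranged more widely than the other strains, at 16.6, 7.90, 36.9 and 14.2 CPM. Dcn changed by 3.48 ± 0.53 in WT-Tacr delayed, by 2.70 ± 0.61 in Rag2-/- and by 2.42 ± 0.53 in NSG samples (adjusted p = 1.08e-05, 0.00597 and 0.00259), and by 1.60 ± 0.54 without passing the test in WT-Tacr acute samples (adjusted p = 0.0611).

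**Figure D1:**
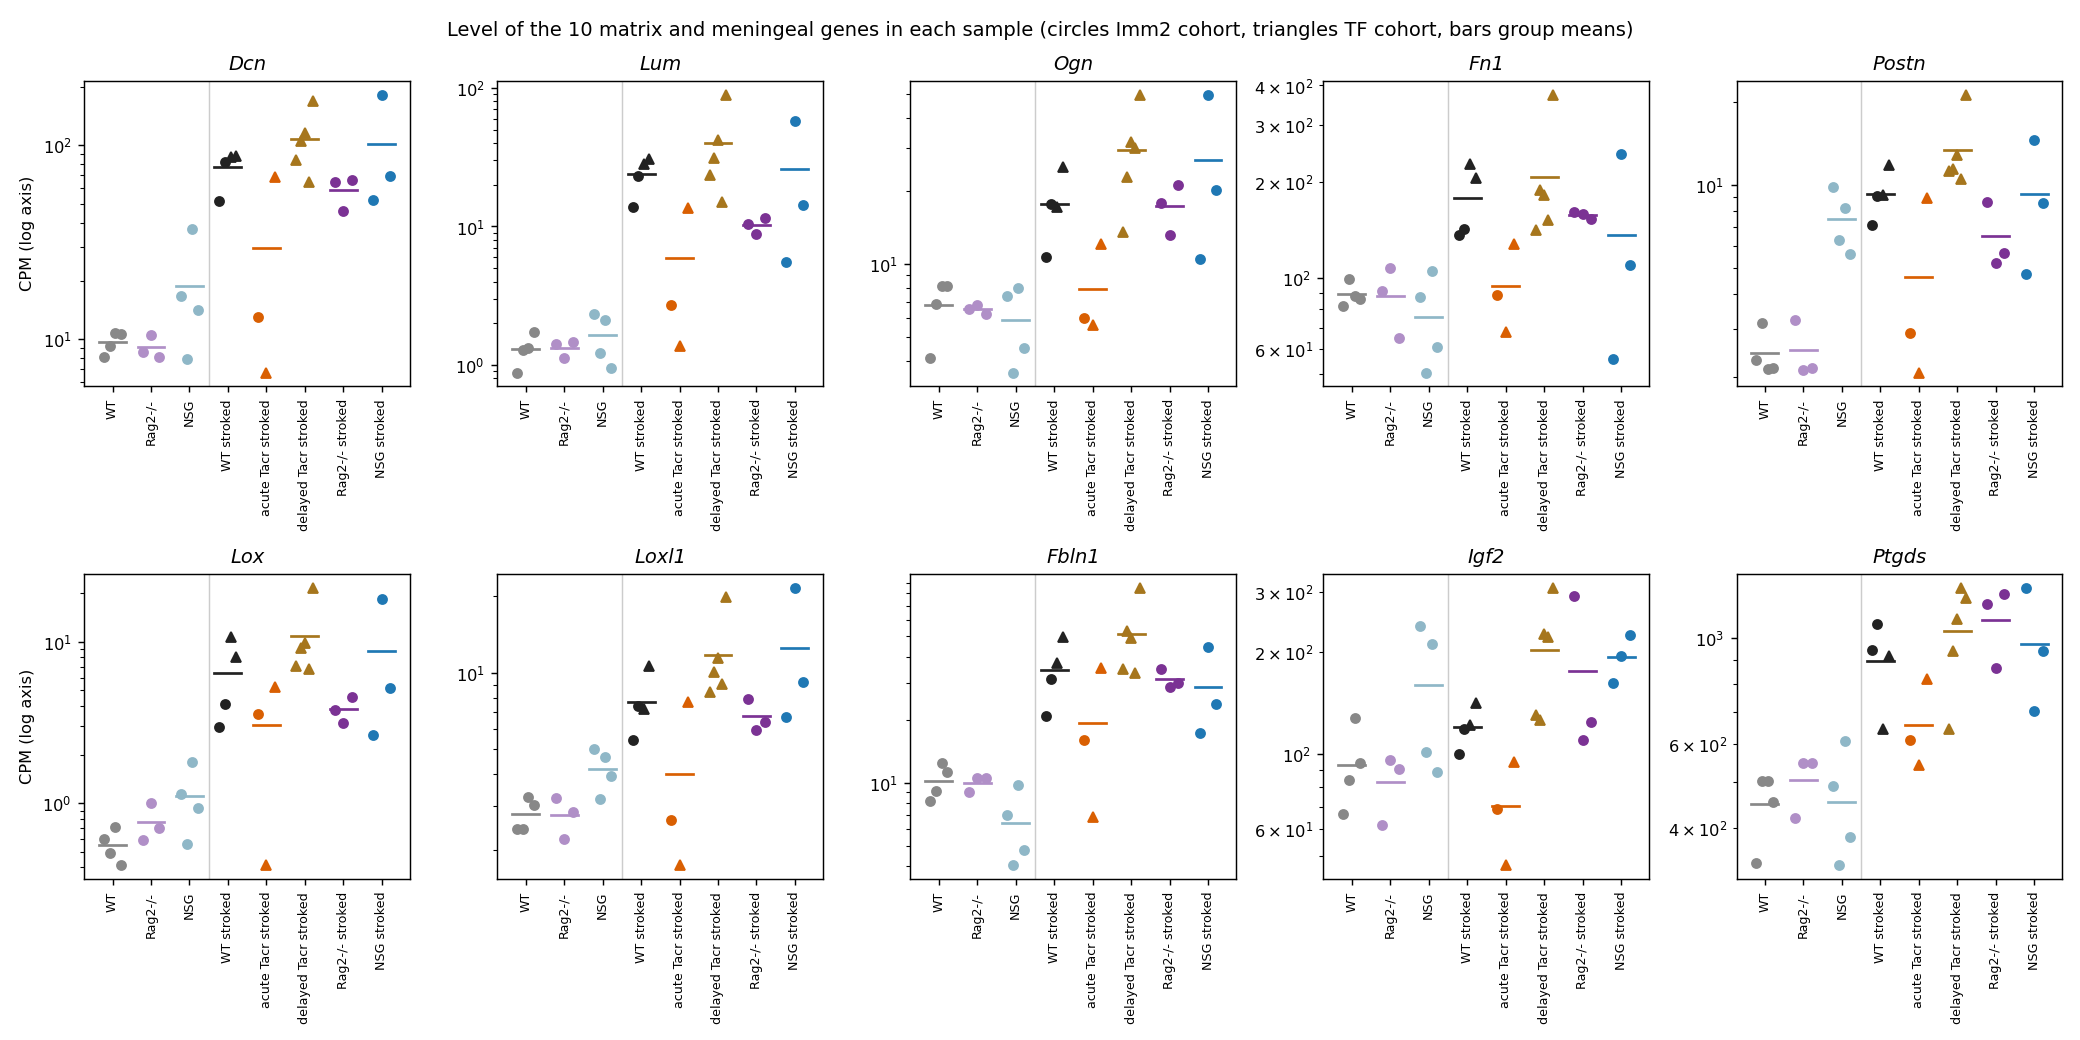
CPM of each of the 10 genes (vertical log axis, a separate scale per gene) in every sample of the 8 groups (horizontal axis), with circles for the Imm2 cohort, triangles for the TF cohort and bars for group means. For Dcn the 4 stroked WT samples lie at 51.5 to 88.2 CPM, above the 4 non-stroked WT samples at 8.09 to 10.7 CPM, while the 3 WT-Tacr acute samples spread from 6.74 to 69.1 CPM.

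Lum, the member with the largest change in stroked WT samples, was low without stroke. Its level was 0.883, 1.28, 1.33 and 1.73 CPM in non-stroked WT samples and 13.8, 23.1, 28.5 and 30.9 CPM in stroked WT samples. This corresponds to a change of 4.20 ± 0.68 (adjusted p = 0.000114) with no overlap between the groups. WT-Tacr acute samples had 2.73, 1.37 and 13.6 CPM of Lum, and WT-Tacr delayed samples 23.4, 31.2, 41.9, 14.9 and 89.0 CPM. Sample 5 of the delayed group was the highest of the 29 samples, ahead of stroked NSG sample 2. Rag2-/- samples had 10.4, 8.90 and 11.5 CPM after stroke and 1.42, 1.12 and 1.46 CPM without it, and NSG samples 5.54, 57.9 and 14.2 CPM and 2.34, 1.22, 2.10 and 0.959 CPM. Both strains separated fully from their non-stroked samples, with changes of 2.94 ± 0.77 in Rag2-/- and 3.97 ± 0.69 in NSG samples (adjusted p = 0.0179 and 0.000363).

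Ogn was higher than Lum per length without stroke and had a smaller fold change. Per kilobase of exons, the mean level was 2.65 CPM for Ogn, 1.66 CPM for Dcn and 0.533 CPM for Lum in non-stroked WT samples, and 6.87, 13.2 and 9.83 CPM in stroked WT samples. By these means Ogn came first of the 3 without stroke and Dcn with it. Ogn was at 4.13, 6.88, 8.11 and 8.11 CPM in non-stroked and 10.7, 17.6, 17.2 and 25.0 CPM in stroked WT samples, a change of 1.37 ± 0.40 (adjusted p = 0.0134). It rose by 2.11 ± 0.39 in WT-Tacr delayed and by 2.19 ± 0.42 in NSG samples (adjusted p = 9.27e-05 and 0.000942). Rag2-/- samples had 17.8, 13.1 and 21.1 CPM after stroke, all above the 6.26 to 6.78 CPM of non-stroked samples, and the adjusted p for a change of 1.41 ± 0.46 was 0.0578. In WT-Tacr acute samples Ogn was at 5.99, 5.62 and 12.1 CPM, with a change of 0.21 ± 0.43 that did not pass the test (adjusted p = 0.784). Ogn lies inside Cenpp on the opposite strand, and Cenpp had 0.00798 to 0.158 counts for each count of Ogn.

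Fibronectin and periostin, the cell-adhesive proteins of the list, rose in stroked WT and WT-Tacr delayed samples, and Postn also in Rag2-/- samples. Fn1 was at 82.0, 99.7, 88.2 and 85.9 CPM in non-stroked WT samples and 137, 143, 228 and 206 CPM in stroked WT samples, where the Imm2 pair was lower than the TF pair. The change of 1.002 ± 0.33 lay just above the fold threshold (adjusted p = 0.0278), and in the Imm2 samples alone Fn1 was not called (log2 fold change 0.66, adjusted p = 0.313). WT-Tacr delayed samples had 141, 189, 182, 152 and 374 CPM and a change of 1.22 ± 0.32 (adjusted p = 0.00262). All of these samples belong to TF and all of their non-stroked controls to Imm2. The 3 WT-Tacr acute samples were at 88.4, 67.8 and 128 CPM, on both sides of the non-stroked range. Fn1 did not pass the test in Rag2-/- samples, although 160.4, 159 and 153 CPM after stroke stood above 91.0, 108 and 64.9 CPM without it (log2 fold change 0.84, adjusted p = 0.199). NSG samples ranged from 55.7 to 245 CPM after stroke and from 50.7 to 105 CPM without it, and their groups overlapped (log2 fold change 0.85, adjusted p = 0.0843).

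Postn was higher in non-stroked NSG samples than in the other non-stroked strains. Non-stroked NSG samples had 9.83, 6.27, 8.25 and 5.60 CPM, against 2.31, 3.16, 2.15 and 2.17 CPM in WT and 3.23, 2.13 and 2.16 CPM in Rag2-/- samples. All 4 NSG samples were above the 7 samples of the other strains, with differences of 1.61 ± 0.36 from WT and 1.57 ± 0.40 from Rag2-/- (adjusted p = 0.00363 and 0.0142). After stroke NSG samples had 4.73, 14.5 and 8.57 CPM, which overlapped the non-stroked NSG samples (change 0.31 ± 0.37, adjusted p = 0.575). Stroked WT samples reached 7.12, 9.11, 9.13 and 11.7 CPM and stroked Rag2-/- samples 8.66, 5.21 and 5.64 CPM, changes of 1.92 ± 0.36 and 1.37 ± 0.42 (adjusted p = 0.000477 and 0.0398). Although Postn rose in WT and not in NSG samples, a direct test of NSG against WT responses gave -1.61 ± 0.52 and was not passed (adjusted p = 0.217). WT-Tacr delayed samples had 11.2, 11.3, 12.8, 10.5 and 21.1 CPM (change 2.45 ± 0.36, adjusted p = 6.52e-06), and WT-Tacr acute samples 2.90, 2.08 and 8.92 CPM.

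The cross-linking enzyme Lox was the only member called in all 5 comparisons of stroked with non-stroked samples. It was at 0.598, 0.490, 0.716 and 0.412 CPM in non-stroked WT samples, which rests on 15 to 27 counts in a library, and at 2.95, 4.08, 10.7 and 8.003 CPM in stroked WT samples. The 2 Imm2 samples with 2.95 and 4.08 CPM were below the 2 TF samples, and Lox was called in the Imm2 samples alone too (log2 fold change 2.66, adjusted p = 0.00506). The change was 3.52 ± 0.63 in WT, 4.28 ± 0.63 in WT-Tacr delayed, 2.32 ± 0.70 in Rag2-/- and 2.98 ± 0.61 in NSG samples (adjusted p = 0.000278, 6.91e-06, 0.0392 and 0.00144). In WT-Tacr acute samples Lox was at 3.58, 0.416 and 5.21 CPM, and the change was 2.47 ± 0.66 (adjusted p = 0.0251). Sample 2 of these 3 thus had the level of a non-stroked sample, and without sample 3, or without any one of non-stroked WT samples 1, 3 and 5, Lox was no longer called. The same was true with cohort as a covariate (adjusted p = 0.263), with only the groups compared (0.105) and in Imm2 alone (0.168), at log2 fold changes of 2.08, 2.48 and 2.69.

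Loxl1 and Fbln1 followed with smaller changes. Loxl1 was at 2.42, 2.42, 3.26 and 3.02 CPM in non-stroked and 5.45, 7.39, 7.21 and 10.6 CPM in stroked WT samples, a change of 1.46 ± 0.37 (adjusted p = 0.00524). It rose by 2.08 ± 0.36 in WT-Tacr delayed and 1.58 ± 0.38 in NSG samples (adjusted p = 4.45e-05 and 0.00485). In Rag2-/- samples all 3 stroked values, 7.89, 5.99 and 6.43 CPM, lay above the non-stroked range of 2.22 to 3.23 CPM, with an adjusted p of 0.0584 for a change of 1.29 ± 0.42. Fbln1 was at 8.14, 9.11, 12.4 and 11.2 CPM without and 20.8, 31.3, 37.1 and 49.5 CPM with stroke in WT samples (change 1.76 ± 0.38, adjusted p = 0.00153). The 4 non-stroked NSG samples had 7.02, 4.04, 9.75 and 4.79 CPM of Fbln1, and the difference from WT of -0.67 ± 0.39 did not pass the test (adjusted p = 0.315). After stroke Fbln1 rose by 2.32 ± 0.37 in WT-Tacr delayed, 1.64 ± 0.44 in Rag2-/- and 2.16 ± 0.41 in NSG samples (adjusted p = 2.02e-05, 0.0197 and 0.000765).

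**Figure D2:**
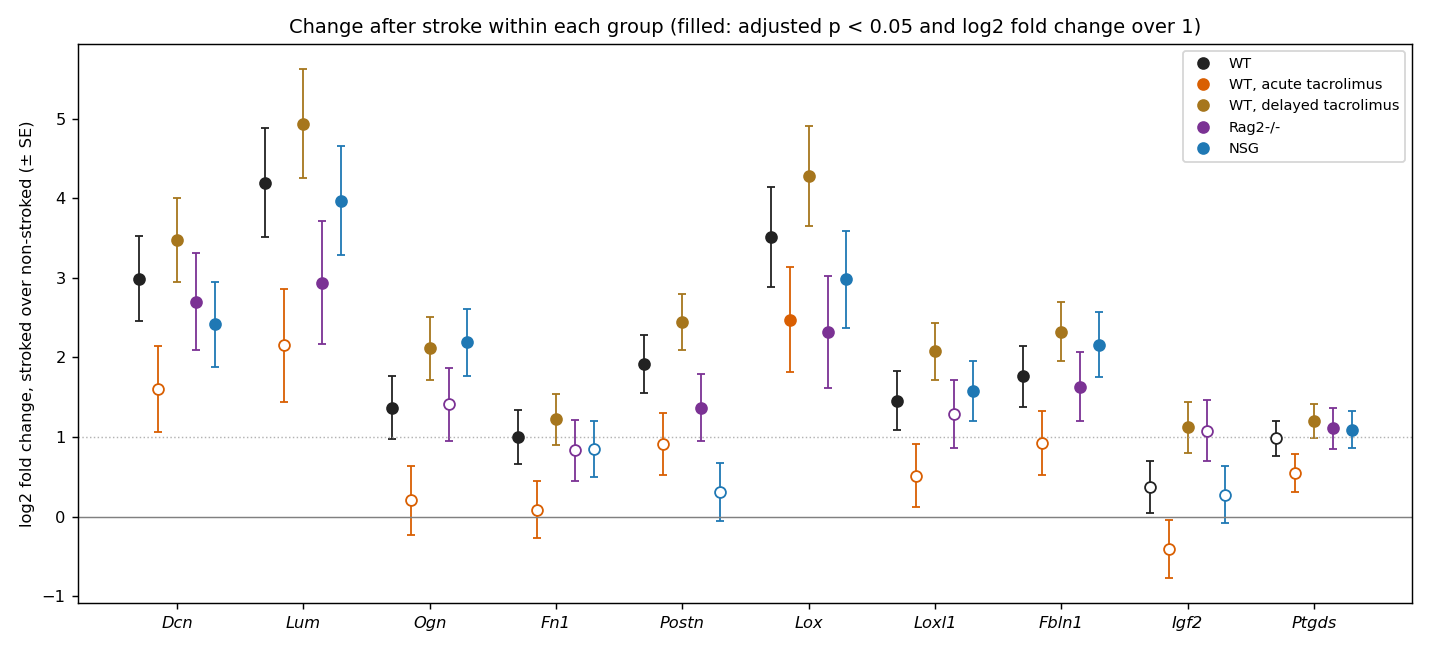
Log2 fold change of stroked over non-stroked samples (vertical axis) with its SE (bars) for the 10 genes (horizontal axis) in 5 groups of samples (colours), filled where a gene was called, with a dotted line at 1. Lum has the highest point in each group but the acute tacrolimus one, where Lox is highest at 2.47, and Postn in NSG samples lies at 0.31.

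The meningeal and cerebrospinal fluid genes Igf2 and Ptgds had the smallest changes of the 10 in stroked WT samples. Ptgds was by far the most abundant member, with a mean of 273 CPM per kilobase in non-stroked WT samples against 16.2 CPM for Igf2. Ptgds was at 339, 503, 503 and 453 CPM in non-stroked and 941, 1066, 645 and 918 CPM in stroked WT samples. The groups did not overlap, but the change of 0.99 ± 0.22 fell short of the fold threshold (adjusted p = 0.00206). Ptgds passed both thresholds in WT-Tacr delayed, Rag2-/- and NSG samples, with changes of 1.20 ± 0.21, 1.11 ± 0.25 and 1.09 ± 0.23 (adjusted p = 5.84e-05, 0.00657 and 0.00198). Summed levels of 8 markers of mature oligodendrocytes, another source of Ptgds, ranged from 4250 to 5880 CPM in non-stroked and 5240 to 7390 CPM in stroked WT samples. WT-Tacr delayed samples had 4920 to 6700 CPM. The sums were 5980 to 6350 CPM without and 6530 to 10100 CPM with stroke in Rag2-/- samples, which did not overlap, and 4400 to 7380 and 6400 to 9540 CPM in NSG samples. None of the 8 was called in any of the 5 stroke comparisons, and the part of oligodendrocytes in the Ptgds level was not tested. Ptgds was also the only member for which all 3 WT-Tacr acute samples, at 613, 543 and 819.8 CPM, stood above all non-stroked WT samples.

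Igf2 was set beside markers of choroid plexus epithelium, the tissue that secretes cerebrospinal fluid, since in several groups the samples highest in 1 were high in the other. In stroked Rag2-/- samples 1 to 3 Igf2 was at 293, 110.1 and 124 CPM and the summed level of 9 choroid plexus markers at 304, 12.9 and 10.1 CPM. In non-stroked NSG samples Igf2 was at 239, 101, 211 and 88.7 CPM beside marker sums of 199, 37.0, 83.3 and 16.4 CPM. The sums were 10.7, 13.3, 132 and 78.7 CPM in non-stroked WT samples, whose Igf2 was at 66.4, 83.8, 128 and 93.9 CPM. In non-stroked Rag2-/- samples Igf2 ran from 62.0 to 96.4 CPM while the sums stayed at 8.35 to 9.63 CPM. Samples with little choroid plexus signal were not without Igf2, since WT-Tacr acute sample 2 had a sum of 4.33 CPM and 47.0 CPM of Igf2. Igf2 was called in WT-Tacr delayed samples, which had 130.5, 126, 226, 222 and 309.9 CPM (change 1.13 ± 0.32, adjusted p = 0.0048) and marker sums of 94.8, 14.9, 135, 118 and 136 CPM. With the log2 marker sum as a covariate, added after the data were seen, this change was 0.77 (adjusted p = 0.00125), below the fold threshold. Elsewhere Igf2 was not called, at 0.37 ± 0.33 in WT, -0.40 ± 0.36 in WT-Tacr acute, 1.08 ± 0.39 in Rag2-/- and 0.28 ± 0.35 in NSG samples (adjusted p = 0.417, 0.488, 0.0847 and 0.605). The annotated gene Gm49394 covers nearly all of Igf2 on the same strand and had 0.928 to 0.989 counts for each Igf2 count, so that the reads of the 2 genes were not separated and the Igf2 level is uncertain to that extent.

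**Figure D3:**
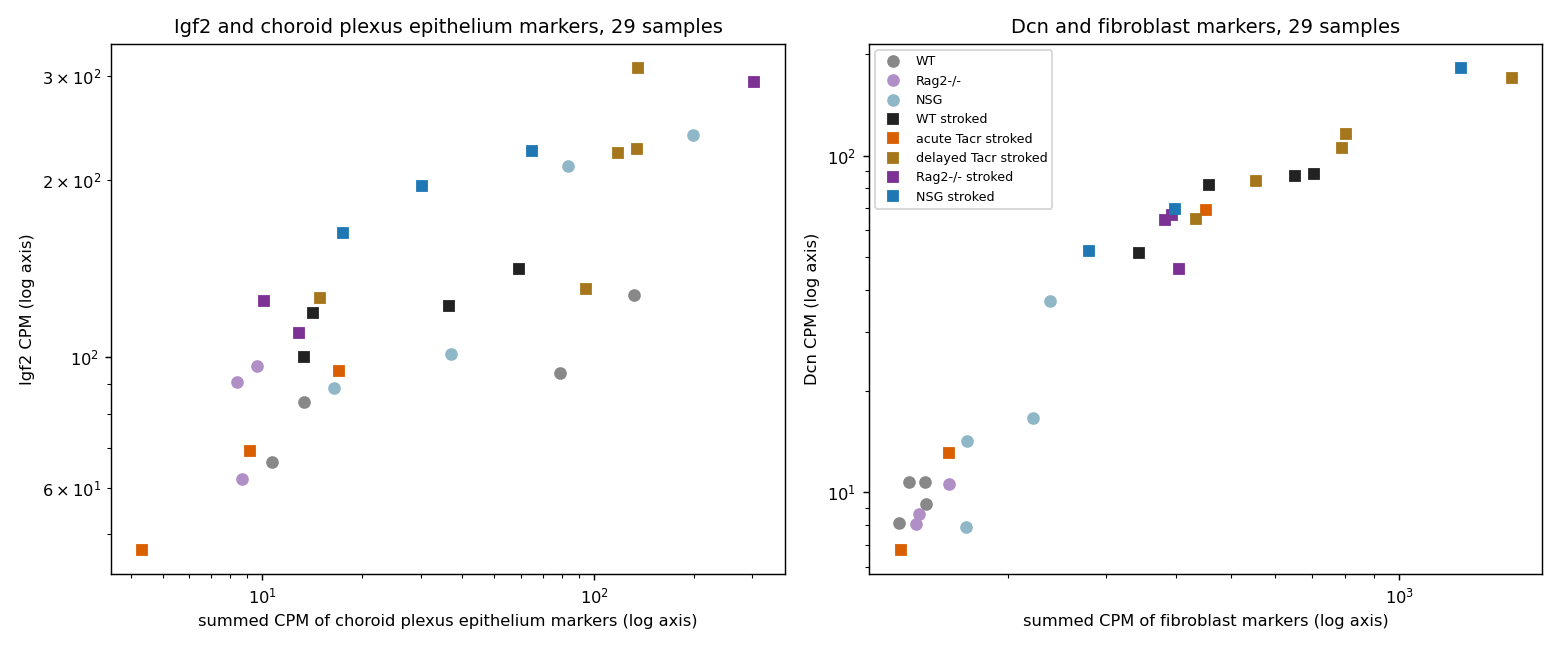
Left, Igf2 CPM (vertical log axis) against the summed CPM of 9 choroid plexus markers (horizontal log axis), and right, Dcn CPM against the summed CPM of 12 fibroblast markers, for 29 samples coloured by group, with circles for non-stroked and squares for stroked samples. Stroked Rag2-/- sample 1 stands at a marker sum of 304 CPM with 293 CPM of Igf2, and Dcn is highest, at 182 and 170.3 CPM, in the 2 samples with the highest fibroblast sums.

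Taking the list as a whole, 8 of 10 genes were called higher in stroked WT samples, where 6.76% of all tested genes were called higher, and 9 of 10 were above the non-stroked samples without overlap, beside 16.3% of all genes. The median log2 fold change of the 10 genes was 1.61, and that of all genes tested was -0.000445. Because the members were chosen with earlier results of these data known, such counts and shares describe the list and do not test it. In WT-Tacr delayed samples all 10 were called higher (11.5% of all genes) and 9 did not overlap (26.5%). In Rag2-/- samples 6 were called higher (4.22%) and all 10 did not overlap (18.8%). In NSG samples 7 were called higher (5.01%), and the same 7 did not overlap (13.6%). In WT-Tacr acute samples Lox was the 1 gene called, beside 2.28% of all genes, and Ptgds the 1 gene without overlap, beside 10.4%. The count there was 4 without sample 2 (Dcn, Lum, Lox and Fbln1), 3 without sample 1 and 0 without sample 3, where 482 of 17264, 911 of 17260 and 23 of 17262 genes were called in either direction. With cohort as a covariate 6 rather than 10 members were called in WT-Tacr delayed samples, and 722 rather than 2636 of all genes. No member was called lower in any of these comparisons. Calls in Rag2-/- samples depended on single samples, since without non-stroked sample 1 the count was 1, and without non-stroked sample 2, non-stroked sample 4 or stroked sample 1 it was 2, with Dcn called each time. Calls over all genes were also fewer in these 4 fits, at 380 to 467, against 737 with all samples. The log2 fold change of Lum lay between 2.83 and 3.03 when single samples were left out, and that of Igf2 between 0.50, without stroked sample 1, and 1.32.

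The 3 WT-Tacr acute samples lay far apart. Sample 2 was the lowest and sample 3 the highest of the 3 for all 10 members. Sample 3 had 9 members above all non-stroked WT samples, sample 1 had 5 (Dcn, Lum, Lox, Fbln1 and Ptgds) and sample 2 had 1 (Ptgds), with 6 below all of them. Fibroblast and myeloid markers were in the same order. Samples 1 to 3 had summed levels of 157, 129 and 452 CPM for fibroblast markers and 131, 125 and 639 CPM for microglia and macrophage markers, where non-stroked WT samples had 128 to 143 and 95.4 to 114 CPM and stroked WT samples 343 to 704 and 303 to 696 CPM. Cortical neuron markers summed to 6180, 5490 and 4280 CPM in these samples, against 5590 to 6270 CPM in non-stroked and 3570 to 5190 CPM in stroked WT samples. The part of these cell types in the levels of the 10 genes was not tested.

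**Figure D4:**
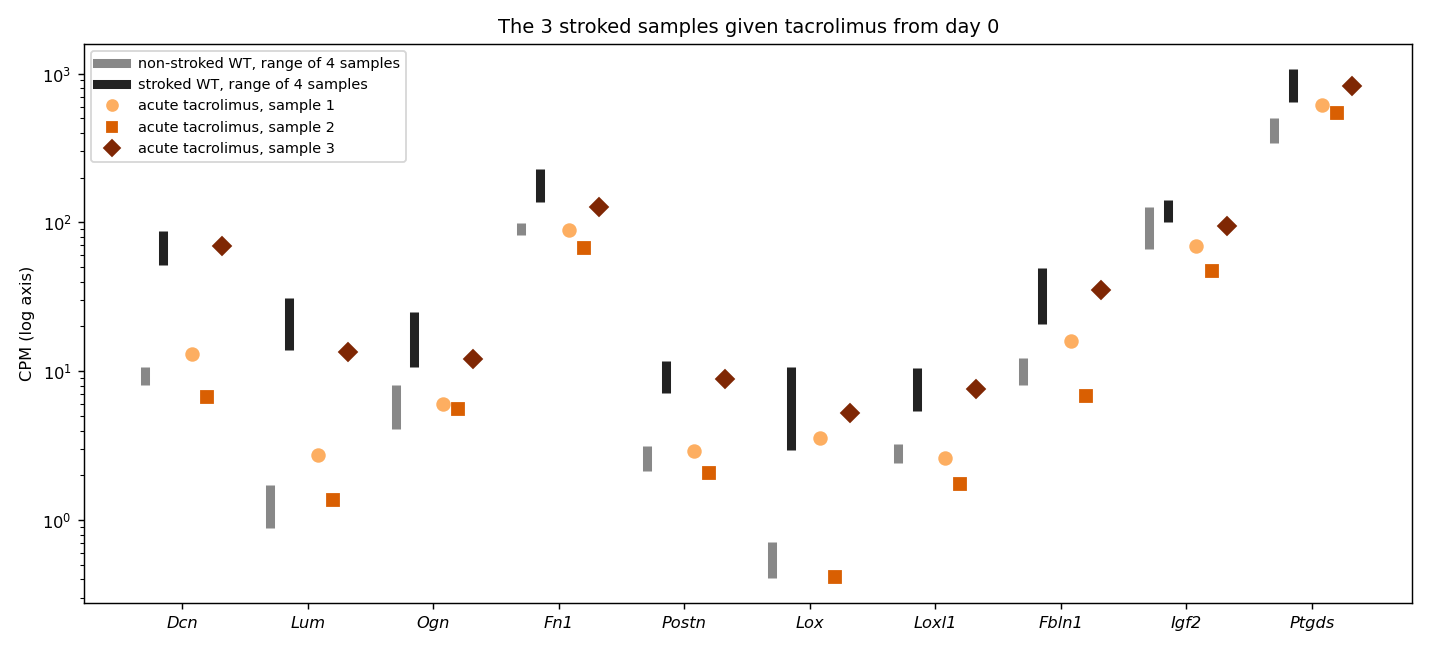
CPM (vertical log axis) of the 10 genes (horizontal axis) in the 3 WT-Tacr acute samples (symbols), beside the ranges of 4 non-stroked (grey bars) and 4 stroked WT samples (black bars). Sample 3 lies near the stroked WT range, for instance at 35.1 CPM for Fbln1, and sample 2 within or below the non-stroked range for all but Ptgds, Fbln1 being at 6.87 CPM.

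Set directly against stroked WT samples, WT-Tacr acute samples had log2 differences below 0 for all 10 members, from -2.04 for Lum to -0.44 for Ptgds. By edgeR none was called, as for all 17031 genes (0%), and adjusted p-values of members ran from 0.311 to 0.468. An unadjusted p under 0.05 was found for 8 of 10 members, beside 2168 of all 17031 genes. DESeq2 called 0 members and 2 of all genes. Without sample 3 of the acute group 6 members were called lower (Dcn, Lum, Ogn, Postn, Loxl1 and Fbln1), and 689 of 17262 genes were called in either direction. Within cohorts the difference in Dcn was -2.35 in Imm2, with 1 acute sample against 2, and -1.22 in TF, with 2 against 2, whereas Lox was at 0.03 in Imm2 and -1.73 in TF, all without passing the test.

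Between WT-Tacr delayed and stroked WT samples no member was called by edgeR or DESeq2, while edgeR called 0% and DESeq2 24 of all 17031 genes. Igf2 alone had an unadjusted p under 0.05 by edgeR, beside 3455 of all 17031 genes. All 10 log2 differences were above 0, from 0.21 for Ptgds to 0.76 for Lox. Delayed and acute tacrolimus were also compared with each other. In WT-Tacr delayed samples 9 of 10 members were called higher than in WT-Tacr acute samples, beside 5.22% of all genes, and 7 did not overlap, beside 8.81%. Lum differed by 2.78 ± 0.67 (adjusted p = 0.0113), Ogn by 1.91 ± 0.43 (0.0103) and Igf2 by 1.53 ± 0.36 (0.0108). Ptgds passed the p threshold but not the fold threshold, at 0.65 ± 0.23 (adjusted p = 0.0467). These calls depended on single samples. Without acute sample 1 or without acute sample 2 no member and 0 of all genes were called, and without delayed sample 5 there were 5 calls among members and 432 among 17000 genes, against 979 with all samples. Within the TF cohort, where 2 acute and 5 delayed samples were sequenced, the difference in Lum was 2.43 (adjusted p = 0.163) and no member was called. With choroid plexus markers as a covariate no member was called either, and in both fits 0 of all genes were, the summed marker level being 4.33 to 17.0 CPM in acute and 14.9 to 136 CPM in delayed samples.

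The non-stroked samples of the strains were compared with each other. Of the 10 members, 1 was called between NSG and WT samples, beside 3.36% of all genes in either direction, and 1 between NSG and Rag2-/- samples, beside 2.8%, in both cases Postn. Leaving out non-stroked Rag2-/- sample 2 or sample 4, or taking choroid plexus markers as a covariate, removed the call against Rag2-/- samples. Between Rag2-/- and WT samples no member was called by edgeR or DESeq2, and edgeR called 0.00587% of all genes. No member reached an unadjusted p under 0.05, beside 349 of all 17031 genes. Differences there ran from -0.16 for Igf2 to 0.46 for Lox. The change with stroke in each strain was then set against the change in WT samples. No member was called by edgeR or DESeq2 for Rag2-/- samples, where none had an unadjusted p under 0.05, nor for NSG samples, where 1, Postn, did. Of all 17031 genes, 713 had such a p for Rag2-/- and 2167 for NSG samples. Over all genes, edgeR called 0% for Rag2-/- and 0.0117% for NSG samples, and DESeq2 called 0 and 69 of 17031. The values for Rag2-/- samples ran from -1.26 ± 1.01 for Lum to 0.71 ± 0.51 for Igf2, and those for NSG samples from -1.61 ± 0.52 for Postn to 0.82 ± 0.58 for Ogn (adjusted p from 0.95 to 0.996 and from 0.217 to 0.954). Rag2-/- and NSG samples all belong to Imm2, whereas 2 of the 4 stroked WT samples belong to TF. With cohort as a covariate, 4 of the 10 values for Rag2-/- and 2 of those for NSG samples had the other sign. In Imm2 alone 4 and 5 did.

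In the order of group means no member separated all neighbouring groups. For Dcn the means rose from 9.08 ± 1.32 CPM (SD, n = 3) in non-stroked Rag2-/- samples through 29.6 ± 34.3 (n = 3) in WT-Tacr acute and 59.1 ± 11.4 (n = 3) in stroked Rag2-/- samples to 108 ± 39.9 CPM (n = 5) in WT-Tacr delayed samples, and each group overlapped the next. The same held for Fn1, Postn, Lox, Fbln1, Igf2 and Ptgds. Lum had 1 gap between neighbours, above stroked Rag2-/- samples (10.3 ± 1.30 CPM), Ogn 1 gap above WT-Tacr acute samples (7.90 ± 3.63 CPM) and Loxl1 1 gap above non-stroked NSG samples (4.20 ± 0.825 CPM).

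Genes of the same pathways were taken from 8 lists. Of all genes tested, 6.76% were called higher in stroked WT, 2.28% in WT-Tacr acute, 11.5% in WT-Tacr delayed, 4.22% in Rag2-/- and 5.01% in NSG samples. Pathway genes named below, apart from Tgfb2, were picked for their calls in these comparisons, so their changes do not stand for their list. The 12 fibroblast collagens included chains of the fibrils to which Dcn and Lum bind. Of the 12, 8 were called higher in stroked WT, 2 in WT-Tacr acute, 9 in WT-Tacr delayed, 4 in Rag2-/- and 6 in NSG samples, and none lower. Col3a1 and Col1a2 were called in all 5, with 4.76 ± 0.80 and 3.62 ± 0.64 in WT and 3.06 ± 0.79 and 2.11 ± 0.64 in WT-Tacr acute samples (adjusted p = 0.000147, 0.000261, 0.0218 and 0.0416). The median log2 fold change of this list was 1.34 in WT samples. Of 10 other leucine-rich proteoglycans that were tested, 3, 0, 6, 4 and 6 were called higher in the same order of groups. Bgn, which encodes biglycan, rose by 1.49 ± 0.38 in WT samples (adjusted p = 0.00554), and Omd, a neighbour of Ogn, by 1.38 ± 0.35 (adjusted p = 0.00599).

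Enzymes that process and cross-link collagen were called higher in 4, 0, 6, 4 and 3 cases of 14 in WT, WT-Tacr acute, WT-Tacr delayed, Rag2-/- and NSG samples. Loxl2, a further lysyl oxidase, rose by 1.83 ± 0.44 in WT samples (adjusted p = 0.00413), and Pcolce, an enhancer of procollagen cleavage, by 1.13 ± 0.34 (adjusted p = 0.0171). Elastic fibre and fibulin genes gave 4, 0, 9, 3 and 5 calls among 13, with Emilin1 at 1.96 ± 0.39 and Efemp1, which encodes fibulin-3, at 1.45 ± 0.26 in WT samples (adjusted p = 0.000802 and 0.000311). Fibronectin receptors and matricellular genes gave 6, 0, 7, 2 and 5 calls among 14. Tgfbi, a TGF-beta-induced relative of Postn, rose by 1.91 ± 0.43, and the integrin subunit Itgb5 by 1.31 ± 0.18 in WT samples (adjusted p = 0.00238 and 2.61e-05).

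Lists of signalling genes were counted in the same way, beside the same shares of all genes. Of 13 TGF-beta genes 2, 1, 5, 1 and 3 were called higher, and Tgfb2, 1 of the ligands, which was named after its value was seen, was called lower in WT-Tacr acute samples (-1.01 ± 0.30, adjusted p = 0.0375). Tgfb1 rose by 1.11 ± 0.22 in WT-Tacr delayed and 1.22 ± 0.24 in NSG samples (adjusted p = 0.000188 and 0.00106), and did not reach the fold threshold in WT samples (0.95 ± 0.23). Of 11 insulin-like growth factor genes tested 2, 0, 4, 2 and 3 were called higher. Igf1 rose by 1.33 ± 0.34 and the binding protein Igfbp5 by 1.01 ± 0.26 in WT samples (adjusted p = 0.00612 and 0.00535), where Igf2 was not called. Of 10 prostaglandin genes tested 3, 0, 5, 2 and 3 were called higher, among them Ptgdr, a receptor for the product of Ptgds, at 2.27 ± 0.43 in WT samples (adjusted p = 0.000508).

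**Figure D5:**
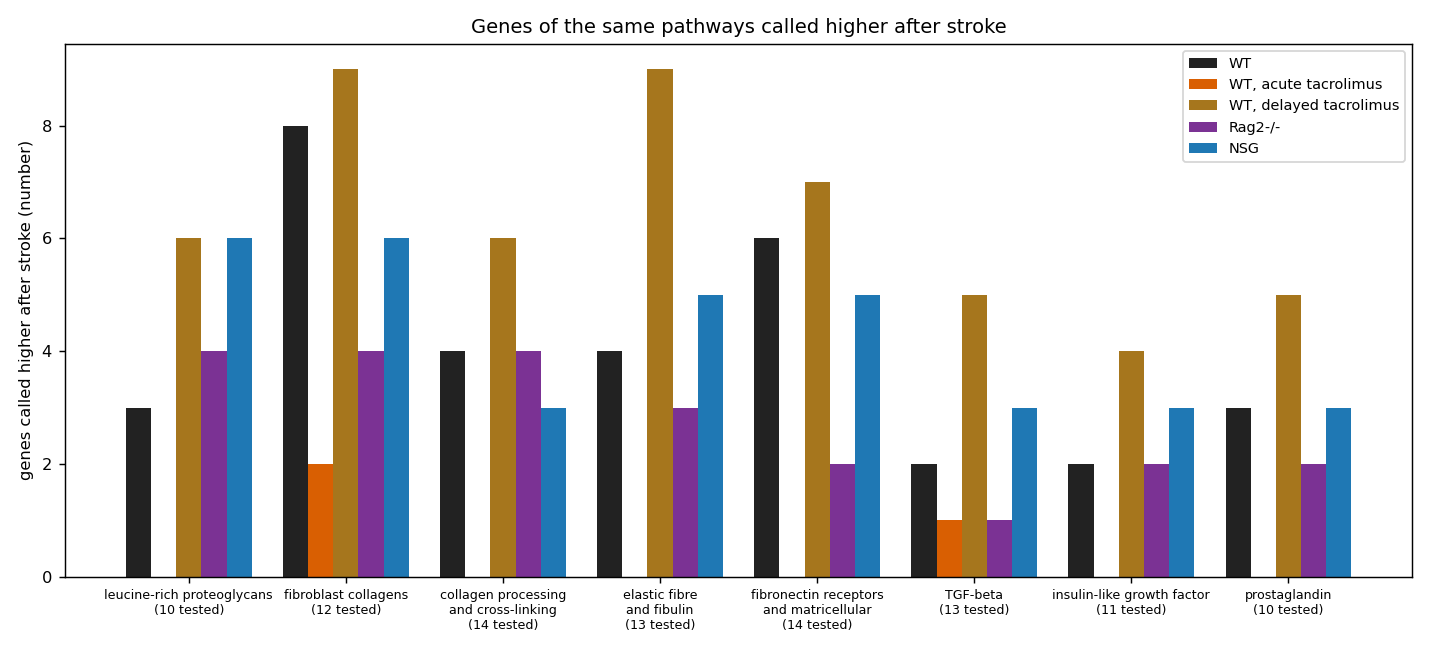
Number of genes called higher after stroke (vertical axis) in 8 lists of matrix and signalling genes (horizontal axis, with the number tested) for the 5 groups of samples (colours). Fibroblast collagens reach 8 of 12 in WT samples and 2 of 12 in WT-Tacr acute samples, where 6 of the lists have no bar.

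Cell type markers were counted in the same 5 comparisons, and not every list moved with the members. The shares of all genes called higher were again 6.76%, 2.28%, 11.5%, 4.22% and 5.01%, in the order of groups below. Of 11 fibroblast markers tested 9, 2, 9, 5 and 7 were called higher in WT, WT-Tacr acute, WT-Tacr delayed, Rag2-/- and NSG samples, a list that shares Col1a1, Col1a2, Col3a1 and Mfap5 with the pathway lists. Of the most abundant astrocyte markers, the glutamate transporter Slc1a2 was not called in any of the 5 (-0.08 ± 0.14 in WT samples) and Gfap, the filament of reactive astrocytes, in all 5 (2.77 ± 0.33 in WT samples). Of the most abundant microglia and macrophage markers, Lyz2 was called in all 5 (6.22 ± 0.87 in WT samples) and Cx3cr1 in WT-Tacr delayed samples alone. Leptomeningeal markers gave 4, 0, 7, 2 and 3 of 11, but their most abundant genes, the transporters Slc13a4 and Slc22a8, were at 0.41 ± 0.32 and -0.27 ± 0.19 in WT samples and were not called. Microglia and macrophage markers gave 6, 4, 7, 5 and 4 of 8. Endothelial markers gave no call in the 5 comparisons, pericyte and smooth muscle markers 1, 0, 2, 0 and 1 of 8, and astrocyte markers 1 of 8 in each, Gfap. Among 8 cortical neuron markers 1 was called lower in WT and 4 in WT-Tacr delayed samples. Choroid plexus markers were called higher only for 1 of 9, in WT-Tacr delayed samples. What part each of these cell types had in the levels of the 10 genes was not tested.

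The genes whose pattern over the 29 samples came nearest to each member were sought among all 17030 other genes tested, by the root mean square difference of centred log2 CPM. Dcn was nearest to Serping1, which encodes an inhibitor of complement (0.316), Lum to the collagen gene Col1a2 (0.384), Ogn to Cp, the ceruloplasmin gene (0.33), and Fn1 to Ddr2, a collagen receptor (0.187). Postn and Loxl1 shared their nearest gene, Mxra8 (0.373 and 0.257), Lox was nearest to Fgl2 (0.412), Fbln1 to the collagen uptake receptor Mrc2 (0.277) and Ptgds to the transporter Slc6a20a (0.286). Igf2 was nearest to the overlapping Gm49394 (0.0284) and next to Sema3b (0.223). No member was the nearest gene of another, and the nearest members to each other were Loxl1 and Ogn, at 0.401. These distances share the same 29 libraries and describe likeness of pattern alone.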

How the data were processed

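RNA-seq of 29 mouse samples was analysed from raw read counts per Ensembl gene, which the authors deposited for each sample after alignment and counting by a core facility from polyA-selected, stranded libraries. The aligner, the genome build and the use of strand in counting are not given in the sources used here. Of 25746 genes, 34 were not found in GENCODE M21. Groups came from the labels. With edgeR 4.0.16 in R 4.3.3, genes were filtered by filterByExpr, scaled by TMM and fitted in 1 quasi-likelihood model of 8 groups, and p-values were adjusted by Benjamini-Hochberg over 17031 genes. SEs were taken as the absolute log2 fold change over the square root of F. The test was checked on simulated data. Alternatives included RLE scaling, DESeq2 1.42.0, no filter, cohort as a covariate, single cohorts and leaving out each sample. A fit with choroid plexus markers as a covariate was chosen after seeing the data. The members and lists were chosen with earlier results of these data known. Named pathway genes were those called in the most of the 5 stroke comparisons, and named cell markers those with the highest mean CPM. A gene that this rule also names is not reported here. Numbers shared by titles of non-stroked samples were not taken as pairs, since of 8 same-number pairs 1 had a correlation above 0.1 in its deviations, and titles of stroked samples hold no number that ties them to non-stroked ones, so that pairing was not tested. No 2 samples of a group agreed within sampling noise, the lowest chi-square per degree of freedom being 7.955. CPM are counts divided by the TMM-scaled library size in megareads. Depth sets counting error only.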

Additional observations from a re-analysis of the deposited data

Results flagged for a closer look

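Dixon's test over the groups of 4 or 5 samples marked 6 of 40 sets of values, and chance marks about 1 in 20. Stroked WT sample 1 had 51.48 CPM of Dcn, below the 82.15 to 88.19 CPM of the other stroked WT samples. Non-stroked WT sample 3 had 3.156 CPM of Postn against 2.148 to 2.306 CPM in the others. The other 4 values came from WT-Tacr delayed sample 5, with 373.7 CPM of Fn1 (others 141.4 to 189.2), 21.13 CPM of Postn (10.46 to 12.79), 21.63 CPM of Lox (6.79 to 9.849) and 19.94 CPM of Loxl1 (8.405 to 11.46).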

How the results depend on the processing

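Of 232 recounts of called members under other settings, 205 stayed within 1.5 times the reported count and 27 did not. A reported count of 0 had to stay at 0, and such recounts are among the 205. In WT-Tacr acute samples the count of 1 became 0 with cohort as a covariate, 0 with only the groups compared, 0 in Imm2 alone, 3 by DESeq2, 5 with choroid plexus markers as a covariate, and 0 to 4 when single samples were left out. In WT-Tacr delayed samples 10 became 6 with cohort as a covariate (8 to 10 without single samples). In Rag2-/- samples 6 became 2 with choroid plexus markers as a covariate and 1 to 6 without single samples. Between WT-Tacr delayed and acute samples 9 became 0 with choroid plexus markers, 0 with only the groups compared, 0 in TF alone, 6 with cohort as a covariate and 0 to 9 without single samples. Against stroked WT samples the acute count of 0 became 0 to 6 without single samples. For Postn between non-stroked NSG and Rag2-/- samples, 1 became 0 with choroid plexus markers and 0 to 1 without single samples. WT counts ran from 6 to 9 and NSG counts from 6 to 7 without single samples. Under a replicate block, the non-stroked comparisons gave 1 call for NSG against WT, 0 for Rag2-/- against WT and 1 for NSG against Rag2-/-, as did the same samples with no block, and deviations of same-number samples correlated by -0.258 to 0.108.

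Of 2320 recomputed fold changes 92 had the other sign, 0 of them for a called member. In WT-Tacr acute samples Ogn was -0.191 with cohort as a covariate, -0.179 in Imm2 alone and from -0.24 (without sample 3) to 0.372 without single samples. Fn1 was -0.195 and -0.00199 in the former 2 fits and from -0.198 to 0.26 without single samples, and Loxl1 was -0.0742 in Imm2 and from -0.336 to 0.839 without single samples. With choroid plexus markers Igf2 was 0.155 in WT-Tacr acute samples, 0.433 between non-stroked Rag2-/- and WT samples and -0.151 for the Rag2-/- response. Without single samples that non-stroked Igf2 difference ran from -0.299 to 0.0286 (without WT sample 4), and the Lox difference was -0.0137 under the replicate block and -0.0207 for the same samples with no block. Postn in NSG samples ran from -0.183 (without stroked sample 2) to 0.619 without single samples, and Lox between acute and stroked WT samples was 0.027 in Imm2 alone. The cause of these changes was not tested.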
